A study of Rattus norvegicus with 13 samples.

Results

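The enzymes of fatty acid synthesis and the transcription factor that drives their genes were followed in the livers of time-mated Sprague Dawley females on 4 diets. The members were Fasn, Acly, Acaca, Scd, Srebf1, Slc25a1, Elovl5, Me1 and Thrsp. A probe set, the group of short oligonucleotides that an array uses for 1 transcript, was taken where the array's annotation named 1 of these genes and no other. Of 8740 non-control probe sets, 16 met this rule, for 8 of the 9 genes; Thrsp was not analysed here. Of the 16, 15 were bright enough to be tested among 5244, and the remaining one, rc_AI171067_at of Me1, is given by its levels only.

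The diets were compared in 13 hepatic total RNA samples with 1 array each. TEN-220 (n = 3), the normally fed control group, had no ethanol and a daily 220 kcal for each unit of body weight in kg raised to 0.75. EtOH-220 (n = 3) received as much energy with a daily 12 g ethanol for each kg. TEN-160 (n = 3), the undernourished controls, had no ethanol and 160 kcal, and EtOH-160 (n = 4) was undernourished at 160 kcal with the same dose of 12 g ethanol. Day of gestation and age are not given here, nor is it stated if 1 array stands for 1 rat or for a pool. The p-values therefore cover the spread between these samples and may cover technical spread alone.

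The liver turns surplus carbohydrate into fat through this pathway. Citrate made in mitochondria leaves through the carrier encoded by Slc25a1, and ATP citrate lyase (Acly) splits it into acetyl-CoA. Acetyl-CoA carboxylase (Acaca) makes malonyl-CoA from it, and fatty acid synthase (Fasn) joins these units to palmitate with NADPH, which malic enzyme (Me1) helps to supply. Elovl5 lengthens polyunsaturated fatty acids, and stearoyl-CoA desaturase (Scd) makes monounsaturated ones. Srebf1 encodes SREBP-1, a membrane-bound transcription factor that insulin raises in liver and that, once cut free, switches on the genes of the pathway. SREBP-1a and SREBP-1c arise from different first exons of Srebf1.

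On genome build GRCr8, as RefSeq gives it, 4 of the genes lie on chromosome 10: Srebf1 at chr10:45507152-45529164, Acaca at chr10:69511627-69773888, Acly at chr10:85912402-85964605 and Fasn at chr10:106570415-106588581. Scd lies at chr1:253218968-253232101, Slc25a1 at chr11:96560054-96563071, Elovl5 at chr8:87671164-87737618 and Me1 at chr8:96429057-96540244. RefSeq's promoter table, with 250 bases before to 50 bases after each start, held 7 of the 9 genes in 8 windows, 2 of them for Srebf1; Fasn and Acaca were not among them. The windows of genes called in some comparison are printed here because SREBP-1 and its partner factors can act near the start of such genes. Sites outside these windows were not searched. The strand is that of the gene, and capitals mark a CCAAT box (CCAAT), a GC box (GGGCGG) or an E-box (CACGTG) on either strand, so that ATTGG and CCGCCC are boxes on the other strand.
Srebf1, upstream start: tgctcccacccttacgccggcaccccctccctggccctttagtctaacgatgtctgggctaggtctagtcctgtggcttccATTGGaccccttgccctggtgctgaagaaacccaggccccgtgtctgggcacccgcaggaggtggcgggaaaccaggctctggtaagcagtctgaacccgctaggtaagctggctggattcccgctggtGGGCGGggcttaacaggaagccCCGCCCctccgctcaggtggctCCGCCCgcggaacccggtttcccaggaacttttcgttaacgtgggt
Srebf1, downstream start: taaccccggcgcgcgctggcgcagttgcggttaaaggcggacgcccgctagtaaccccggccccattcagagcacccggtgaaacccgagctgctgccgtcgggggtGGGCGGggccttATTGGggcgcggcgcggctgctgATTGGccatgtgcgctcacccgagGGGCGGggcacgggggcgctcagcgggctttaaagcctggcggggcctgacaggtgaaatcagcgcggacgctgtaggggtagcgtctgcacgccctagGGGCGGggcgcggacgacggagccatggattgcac
Slc25a1: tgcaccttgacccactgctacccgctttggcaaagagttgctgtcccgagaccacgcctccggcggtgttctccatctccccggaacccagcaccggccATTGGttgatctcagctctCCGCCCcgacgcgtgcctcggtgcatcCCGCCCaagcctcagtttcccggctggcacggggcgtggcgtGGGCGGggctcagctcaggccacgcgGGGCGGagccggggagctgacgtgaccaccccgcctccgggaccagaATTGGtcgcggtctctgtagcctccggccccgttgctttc
Acly: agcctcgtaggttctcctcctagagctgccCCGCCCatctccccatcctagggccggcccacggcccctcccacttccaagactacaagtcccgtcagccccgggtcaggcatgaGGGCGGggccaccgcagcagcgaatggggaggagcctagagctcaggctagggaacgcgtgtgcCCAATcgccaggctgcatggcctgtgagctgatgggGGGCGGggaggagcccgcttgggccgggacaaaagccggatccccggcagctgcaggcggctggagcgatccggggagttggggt
Scd: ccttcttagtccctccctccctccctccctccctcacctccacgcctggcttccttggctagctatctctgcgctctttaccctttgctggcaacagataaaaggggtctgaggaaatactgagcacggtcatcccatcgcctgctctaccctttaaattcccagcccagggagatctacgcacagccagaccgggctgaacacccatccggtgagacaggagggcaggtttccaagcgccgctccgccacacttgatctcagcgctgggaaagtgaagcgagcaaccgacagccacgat
Elovl5: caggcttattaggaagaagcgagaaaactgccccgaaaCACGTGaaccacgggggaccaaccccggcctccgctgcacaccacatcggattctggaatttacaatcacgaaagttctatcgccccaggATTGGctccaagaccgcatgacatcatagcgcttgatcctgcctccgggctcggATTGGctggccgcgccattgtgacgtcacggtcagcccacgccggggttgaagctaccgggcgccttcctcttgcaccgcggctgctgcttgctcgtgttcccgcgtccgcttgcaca

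The windows lie at chr10:45529115-45529414 (minus strand) and chr10:45518961-45519260 (minus strand) for Srebf1, chr11:96559804-96560103 (plus strand) for Slc25a1, chr10:85963582-85963881 (minus strand) for Acly, chr1:253231682-253231981 (minus strand) for Scd and chr8:87670914-87671213 (plus strand) for Elovl5. A CCAAT box was found in 6 of the 8 windows, against 37.5% of the 33469 promoters in the table, and a GC box in 6 of 8, against 33.1%. The E-box was found in 1 window, that of Elovl5, 212 bases before the start, against 6.42% of all promoters. The sterol element TCACNCCAC was in 0 of 8, against 1.12%. The Scd window held none of these motifs and is therefore all in lower case. A match is a run of letters and not a shown binding site, and a missing match says nothing about the factor.

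Signals are normalized intensities, a change is the difference of mean log2 signals, given with its standard error (SE) in the fitted model, and a probe set was called at a limma Benjamini-Hochberg adjusted p under 0.05 over all 5244. A signal of 44 was taken as background. Levels of different probe sets are not comparable with each other. Over all genes the 3 arrays of TEN-160 formed a cluster of their own, with scores of 31 to 43.1 on the first principal component (31.1% of the variance) against −13.6 to −2.98. They also differed in the spiked control BioDn, whose 5′/3′ signal ratio was 0.422 to 0.497 against 0.132 to 0.21. Diet and these array differences cannot be told apart in any comparison that uses TEN-160. The 3′/5′ signal ratio of GAPDH, which falls with intact RNA, lay between 1.52 and 2.32 in TEN-220, between 1.04 and 1.47 in EtOH-220, between 1.03 and 1.24 in TEN-160 and between 1.5 and 1.73 in EtOH-160, and its part in the results was not tested. Of 6 hepatocyte markers measured, 0 lay below background on all arrays, and their summed signal overlapped between the groups (132096 to 143125). In bulk RNA, fewer cells of a type and less RNA per cell cannot be told apart.

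Undernutrition without ethanol went with lower signals of 5 of the 8 genes. Between TEN-160 and TEN-220, 6 of the 15 probe sets fell and 0 rose, for Fasn, Acly, Scd, Srebf1 and Slc25a1, against 17.8% of all probe sets called. The changes of the 15 ranged from −2.83 to 0.39, with a median of −1.11 against −0.03 over all probe sets, and 13 were negative. Without TEN-220 replicate 1, which was deposited on another scale, 6 members fell as well. At the same low energy with ethanol, the same 5 genes were higher. Between EtOH-160 and TEN-160, 7 of 15 rose and 1 fell, against 22.3% of all called, with a median of 0.59 against 0.02. These comparisons share the 3 TEN-160 arrays, so they are not independent of each other. In 6 of the 15 tested member probe sets the 3 TEN-160 arrays lay below the other 10 arrays, against 7.28% of all probe sets. They lay above in 0 members (7.72% of all). These 6 are the ones called lower from the same TEN-160 values, so the pattern is no separate support for the calls.

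**Figure D1:**
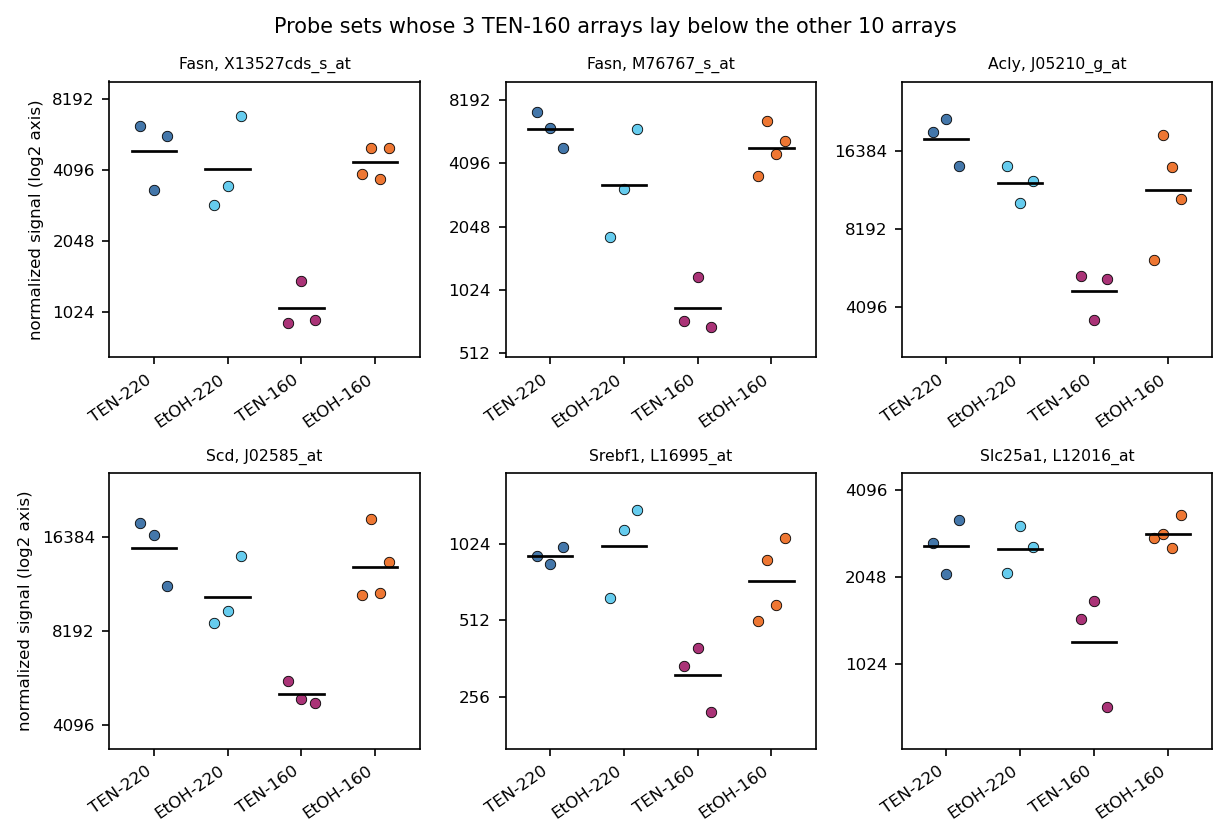
Normalized signal (log2 axis) of the 6 probe sets whose TEN-160 arrays lay below the other 10, by diet group. Each point is 1 array and each bar the geometric mean of a group (n = 3, and 4 in EtOH-160). In each panel the 3 TEN-160 points sit below every other point, such as 922 to 1390 against 2920 to 6948 for Fasn X13527cds_s_at.

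Srebf1, the regulator, was measured by L16995_at. Its signal was 915, 852 and 993 in TEN-220, 628, 1161 and 1385 in EtOH-220, 338, 400 and 225 in TEN-160, and 509, 886, 587 and 1075 in EtOH-160. TEN-160 was the lowest group with no overlap, while the other 3 groups overlapped. The probe set is not stated to tell the 1a and 1c transcripts apart. Srebf1 fell by 1.56 on the log2 scale from TEN-220 to TEN-160, a 2.94-fold difference (SE 0.326, adjusted p = 0.00605). From TEN-160 to EtOH-160 it rose by 1.23, or 2.34-fold (SE 0.305, adjusted p = 0.012). That second call was lost without TEN-160 replicate 3, the lowest array, with a change of 0.99 and an adjusted p of 0.056.

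Slc25a1, the citrate carrier, gave signals of 2695, 2096 and 3230 in TEN-220 and of 2114, 3077 and 2612 in EtOH-220. In TEN-160 the signals were 1468, 1692 and 729, and in EtOH-160 they were 2802, 2890, 2581 and 3363. The 10 arrays outside TEN-160 kept within 2096 to 3363, and TEN-160 replicate 3 was far below its own group. Slc25a1 fell by 1.11 from TEN-220 to TEN-160 (SE 0.272, adjusted p = 0.0132) and rose by 1.25 from TEN-160 to EtOH-160 (SE 0.254, adjusted p = 0.00401). Without TEN-160 replicate 3 the change from TEN-220 was −0.74 (adjusted p = 0.032), and without TEN-220 replicate 3 the call was lost (change −0.96, adjusted p = 0.0525).

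Acly, which makes cytosolic acetyl-CoA, had 3 tested probe sets, and they differed. On J05210_g_at the signals were 19492, 21744 and 14396 in TEN-220, 14288, 10320 and 12555 in EtOH-220, 5381, 3654 and 5262 in TEN-160, and 6187, 18948, 14214 and 10714 in EtOH-160. TEN-160 was lowest, and EtOH-160 replicate 1 came nearest to it. On this probe set Acly fell by 1.96, or 3.89-fold, from TEN-220 to TEN-160 (SE 0.318, adjusted p = 0.00125) and rose by 1.3 from TEN-160 to EtOH-160 (SE 0.298, adjusted p = 0.00792).

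The probe set J05210_at, whose name shares its stem with the former, showed a smaller difference. Its signals were 8114, 8199 and 6831 in TEN-220, 6831, 3441 and 5368 in EtOH-220, 5117, 2421 and 4263 in TEN-160, and 2527, 6283, 5726 and 4823 in EtOH-160. Its TEN-160 arrays lay below TEN-220 but among the ethanol arrays. The change of −1.04 from TEN-220 to TEN-160 missed the threshold (SE 0.344, adjusted p = 0.0529). It passed it under trimmed-mean scaling and without TEN-160 replicate 1, EtOH-160 replicate 1 or EtOH-220 replicate 1 or 2, at adjusted p down to 0.0233. Its change from TEN-160 to EtOH-160 was 0.29 (95% interval −0.4 to 0.98).

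The third Acly probe set, L27075_g_at, was highest in a different group. Its signals were 217, 154 and 199 in TEN-220, 538, 239 and 554 in EtOH-220, 100, 119 and 178 in TEN-160, and 205, 254, 261 and 273 in EtOH-160. The EtOH-220 arrays lay above all TEN-220 arrays. That difference of 1.14 was not called (SE 0.308, adjusted p = 0.259), but passed without EtOH-220 replicate 2, the lowest of its group (1.54, adjusted p = 0.0336). From TEN-160 to EtOH-160 it rose by 0.94 (SE 0.288, adjusted p = 0.0315). It was no longer called under trimmed-mean scaling, with no filter or without any 1 of 5 arrays (TEN-160 replicates 1 and 2, EtOH-160 replicates 2, 3 and 4), at adjusted p up to 0.121. Across the 13 arrays it correlated with J05210_g_at at r = 0.49 and across the 10 outside TEN-160 at r = −0.11, while the J05210 pair had r of 0.83 and 0.94.

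Acaca, the carboxylase, was measured by J03808_at and was not called in any of the 6 comparisons. The signals were 221, 119 and 171 in TEN-220, 169, 138 and 309 in EtOH-220, 133, 138 and 113 in TEN-160, and 232, 174, 171 and 196 in EtOH-160. EtOH-160 lay above TEN-160 without overlap, and the other pairs overlapped. The change from TEN-160 to EtOH-160 was 0.59 (95% interval 0 to 1.18, adjusted p = 0.141), and from TEN-220 to TEN-160 it was −0.37 (−1 to 0.26, adjusted p = 0.41).

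Fasn, which assembles palmitate, had the largest changes of the members in the comparisons with TEN-160. On X13527cds_s_at the signals were 6283, 3369 and 5726 in TEN-220, 2920, 3523 and 6948 in EtOH-220, 922, 1390 and 950 in TEN-160, and 3961, 5093, 3765 and 5080 in EtOH-160. On M76767_s_at they were 7189, 6023 and 4877 in TEN-220, 1827, 3101 and 5990 in EtOH-220, 731, 1174 and 685 in TEN-160, and 3559, 6525, 4562 and 5216 in EtOH-160. On both, TEN-160 lay below every other array, and EtOH-220 spread widely, with replicate 3 the highest of its group. Fasn fell from TEN-220 to TEN-160, with changes of −2.21 (4.63-fold, SE 0.307, adjusted p = 0.000472) and −2.83 (7.11-fold, SE 0.357, adjusted p = 0.000276). From TEN-160 to EtOH-160 it rose by 2.05 (4.15-fold, SE 0.287, adjusted p = 0.000424) and by 2.53 (5.79-fold, SE 0.334, adjusted p = 0.000355).

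Scd, the desaturase that makes oleic acid, differed between the same groups on J02585_at. The signals were 18131, 16586 and 11407 in TEN-220, 8671, 9447 and 14214 in EtOH-220, 5647, 4949 and 4800 in TEN-160, and 10654, 18699, 10784 and 13536 in EtOH-160. TEN-160 was again the lowest, with little spread. Scd fell by 1.56 from TEN-220 to TEN-160 (2.95-fold, SE 0.239, adjusted p = 0.000851) and rose by 1.35 from TEN-160 to EtOH-160 (2.55-fold, SE 0.224, adjusted p = 0.00119). Its other probe set, rc_AI175764_s_at, did not follow, with 404, 279 and 366 in TEN-220, 512, 193 and 485 in EtOH-220, 523, 411 and 428 in TEN-160, and 303, 488, 363 and 430 in EtOH-160. Its TEN-160 arrays lay above TEN-220, by an uncalled 0.39 (95% interval −0.3 to 1.07, adjusted p = 0.434). The pair of Scd probe sets correlated at r = −0.13 over the 13 arrays. The array's annotation gives both to Scd, and which transcripts each one detects was not tested.

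Elovl5, the elongase, moved the other way. On rc_AA892832_at its signals were 7662, 9872 and 8768 in TEN-220, 11072, 7825 and 7662 in EtOH-220, 10376, 10714 and 9315 in TEN-160, and 6551, 6245, 6268 and 6187 in EtOH-160. The 4 EtOH-160 arrays lay within 6187 to 6551, below the other 9, a pattern found in 0.763% of all probe sets, and no other member showed it. Elovl5 fell by 0.68 from TEN-160 to EtOH-160 (1.6-fold, SE 0.139, adjusted p = 0.00408). The change to EtOH-160 was −0.47 from TEN-220 and −0.47 from EtOH-220 (SE 0.139), with no overlap, but neither was called (adjusted p = 0.113 and 0.191). Without EtOH-220 replicate 1 the difference from TEN-220 passed, at an adjusted p of 0.0371. The 2 cholangiocyte markers measured, Epcam and Krt19, summed to 158 to 213 in EtOH-160 and to 97.2 to 151 in the other groups. Both lay below background on some arrays, with signals of 39.4 to 157 for Epcam and up to 82 for Krt19. Only Epcam was bright enough to be tested. Its change from TEN-160 to EtOH-160, where Elovl5 was called, was an uncalled 0.15 (limma, adjusted p = 0.743). To EtOH-160 it was 0.96 from TEN-220 and 0.41 from EtOH-220, also uncalled. The part of these markers in the Elovl5 result was not tested.

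**Figure D2:**
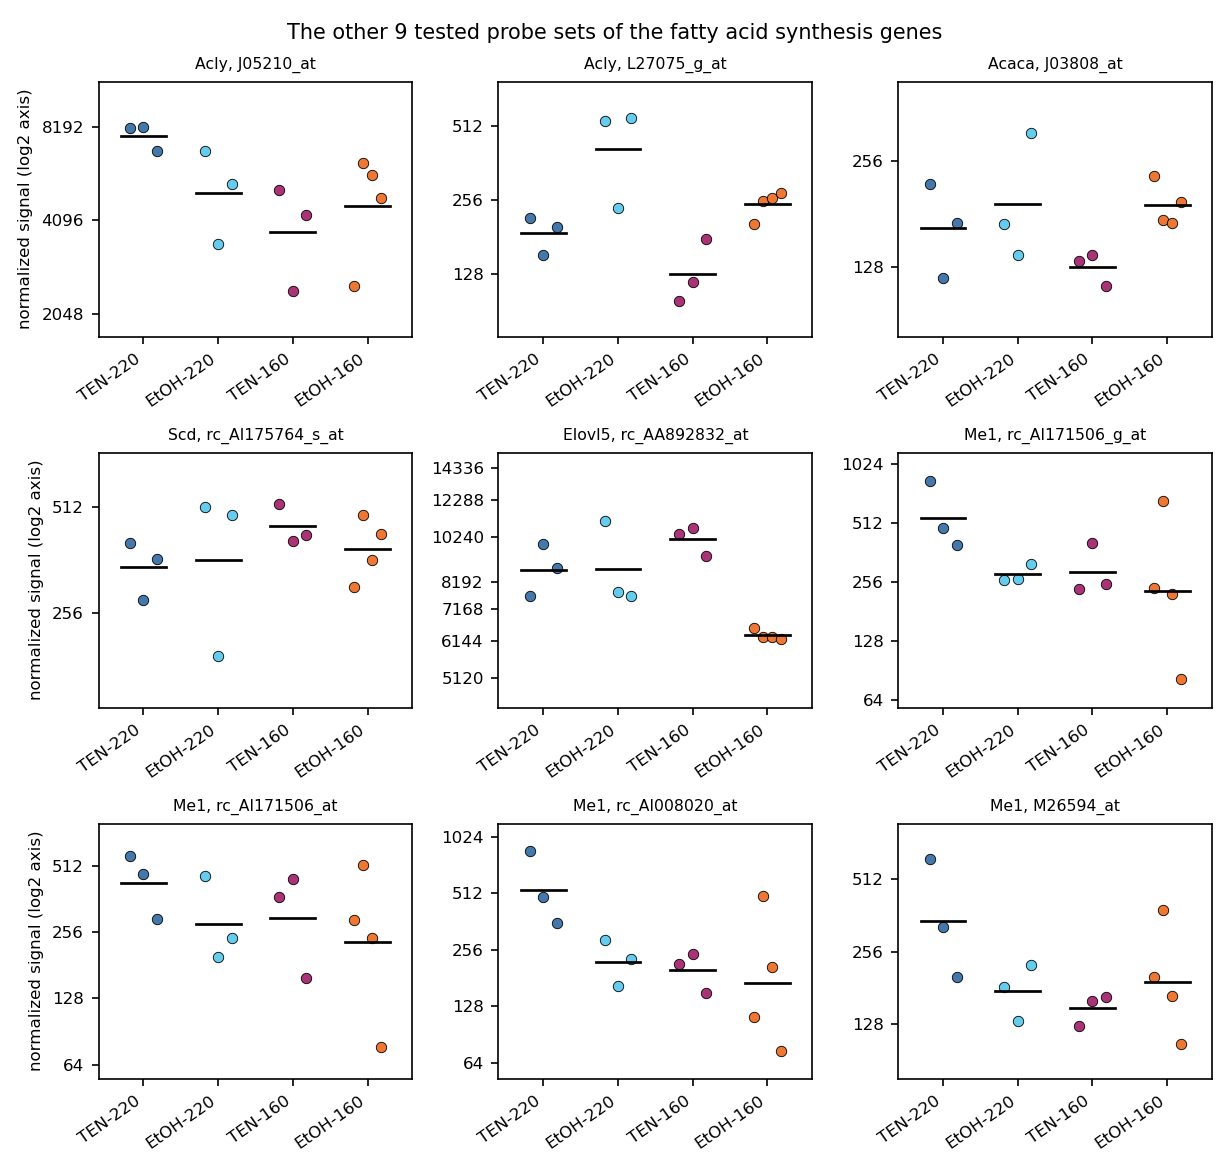
Normalized signal (log2 axis) of the other 9 tested probe sets, by diet group. Each point is 1 array and each bar a group's geometric mean (n = 3, and 4 in EtOH-160). The EtOH-160 arrays of Elovl5 lie together at 6187 to 6551, the EtOH-220 arrays of Acly L27075_g_at reach 554, and 3 of the 4 Me1 probe sets spread most in EtOH-160.

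Me1, the cytosolic malic enzyme, was not called in any of the 6 comparisons on its 4 tested probe sets. On rc_AI171506_g_at the signals were 838, 483 and 397 in TEN-220, 263, 265 and 319 in EtOH-220, 237, 405 and 250 in TEN-160, and 240, 663, 222 and 82.2 in EtOH-160. EtOH-160 replicate 2 was the highest and replicate 4 the lowest of its group on all 4 probe sets, as in 496 and 73.4 on rc_AI008020_at. TEN-220 had the highest geometric mean on all 4, at 344 to 544 against 149 to 296 in the other groups. The 6 pairs of these probe sets correlated at r = 0.68 to 0.92 over the 13 arrays. On rc_AI008020_at, with 864, 489 and 356 in TEN-220 and 216, 243 and 150 in TEN-160, the change was −1.42 (SE 0.545, adjusted p = 0.0904). On M26594_at, with 624, 325 and 201 against 126, 160 and 165, it was −1.21 (SE 0.436, adjusted p = 0.0726). Both passed without EtOH-160 replicate 2 (adjusted p down to 0.0276), and M26594_at also without TEN-220 replicate 3. The untested rc_AI171067_at had signals of 13.2 to 93.4, around the background of 44, with all 4 groups overlapping.

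No member passed the test for ethanol at full energy. Between EtOH-220 and TEN-220, limma called 0 of 15 probe sets, against 0.0191% of all. An unadjusted p under 0.05 was reached by 5 of the 15 (1 higher, 4 lower) and by 524 of all 5244. The members' median was −0.52 against −0.04 over all probe sets, and 10 of the 15 changes were negative. The arrays of the groups did not overlap for 4 members, against 17.8% of all probe sets: Acly L27075_g_at was higher, and Acly J05210_g_at and 2 of the Me1 probe sets were lower. Intervals were wide: the change of Fasn was −0.25 (95% interval −0.91 to 0.41) on X13527cds_s_at and −0.88 (−1.65 to −0.11, adjusted p = 0.467) on M76767_s_at. Scd J02585_at had a change of −0.52 (−1.03 to −0.01, adjusted p = 0.497) and Srebf1 of 0.13 (−0.57 to 0.83, adjusted p = 0.933). Members spread most in EtOH-220, with a median SD of log2 signal of 0.502 against 0.313 to 0.38 in the other groups. Over all probe sets the largest median SD was that of TEN-160 (0.293, against 0.277 in EtOH-220).

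Whether ethanol acted differently at the lower energy supply was tested as the interaction, the change from TEN-160 to EtOH-160 minus that from TEN-220 to EtOH-220. Here 4 of 15 probe sets were called, all higher, against 7.13% of all. Fasn had interactions of 2.31 (SE 0.421, adjusted p = 0.00726) and 3.41 (SE 0.489, adjusted p = 0.00206). Acly J05210_g_at had 1.87 (SE 0.436, adjusted p = 0.0229) and Scd J02585_at 1.87 (SE 0.327, adjusted p = 0.0068). The Acly call was lost without TEN-220 replicate 1 or 2 (adjusted p up to 0.0607) and with no filter (0.0689). Slc25a1 had 1.28 (SE 0.372, adjusted p = 0.0534), which passed under trimmed-mean scaling and without TEN-160 replicate 2 (adjusted p = 0.029). Srebf1 had 1.1 (95% interval 0.14 to 2.06, adjusted p = 0.144) and Elovl5 −0.68 (−1.12 to −0.24, adjusted p = 0.059), the latter called without EtOH-220 replicate 3 (adjusted p = 0.047).

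Energy supply within the ethanol groups, EtOH-160 against EtOH-220, gave no call either. Of the 15 members limma called 0, against 0.286% of all, and 2 of the 15 and 584 of all had an unadjusted p under 0.05. Fasn had changes of 0.09 (−0.52 to 0.71) and 0.58 (−0.13 to 1.3), Scd J02585_at of 0.31 (−0.17 to 0.79), Slc25a1 of 0.17 (−0.37 to 0.72) and Srebf1 of −0.46 (−1.11 to 0.2). These intervals do not show equality, since each still allows changes of 1.5-fold or more. Between EtOH-160 and TEN-220, limma called 0 of 15, against 2.23% of all, with 5 of the 15 and 723 of all at an unadjusted p under 0.05. The changes were −0.16 and −0.3 for Fasn and −0.33 for Srebf1. Without EtOH-160 replicate 2, 2 Me1 probe sets were called here, rc_AI171506_g_at and rc_AI008020_at (adjusted p down to 0.0194).

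**Figure D3:**
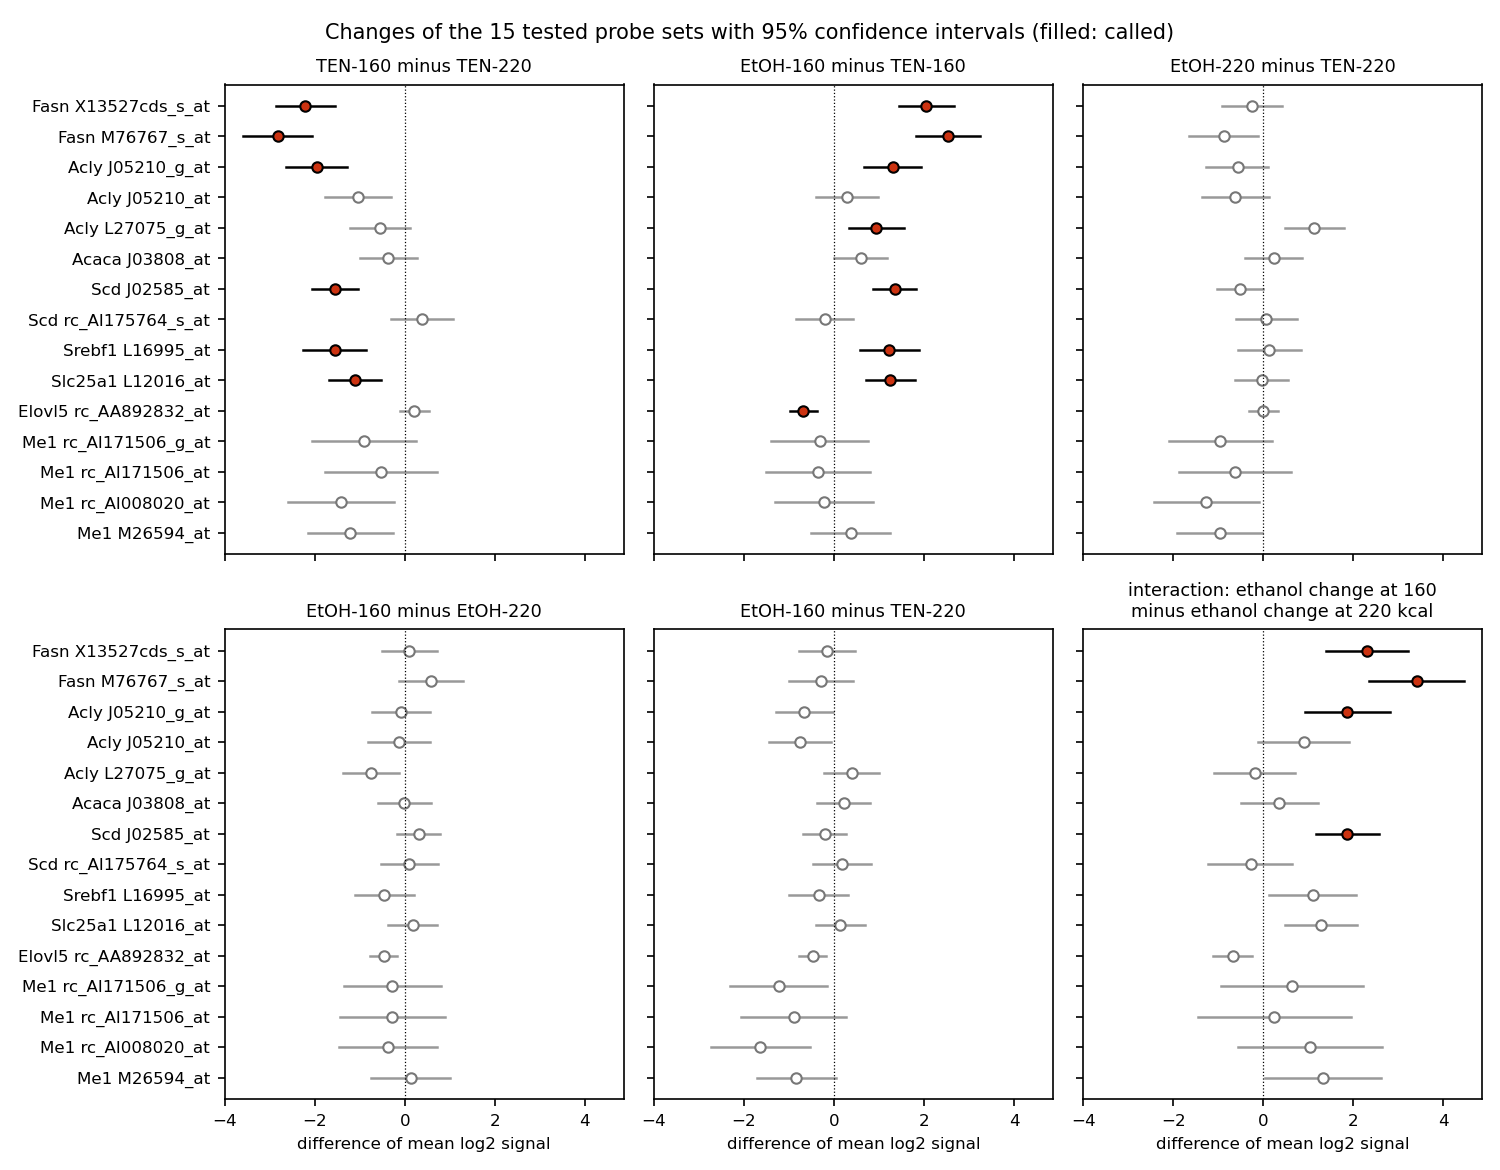
Difference of mean log2 signal, with its 95% confidence interval from limma, for the 15 tested probe sets in 5 pairwise comparisons and the interaction; filled points passed an adjusted p of 0.05. Filled points appear for TEN-160 minus TEN-220 (6), EtOH-160 minus TEN-160 (8) and the interaction (4), and none in the panels without TEN-160.

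The order of the groups differed between the members. On both Fasn probe sets and on Scd J02585_at the geometric means ran TEN-220, EtOH-160, EtOH-220, TEN-160 from high to low, and on both J05210 probe sets of Acly they ran TEN-220, EtOH-220, EtOH-160, TEN-160. For Srebf1 the order was EtOH-220, TEN-220, EtOH-160, TEN-160, at 1003, 918, 730 and 312, and for Slc25a1 it was EtOH-160, TEN-220, EtOH-220, TEN-160, at 2895, 2633, 2571 and 1219. None of these probe sets passed the test between any pair of the upper 3 groups. Fasn X13527cds_s_at correlated with Srebf1 at r = 0.89, with Scd J02585_at at 0.89 and with Slc25a1 at 0.87 over the 13 arrays. Over the 10 outside TEN-160 these r were 0.59, 0.57 and 0.51, and r with Acly J05210_g_at was 0.12 after 0.75. With the 2 arrays farthest from the median of Fasn left out, r over 8 arrays was 0.31 with Srebf1, 0.45 with Scd J02585_at, 0.5 with Slc25a1 and 0.25 with Acly J05210_g_at. All points share the array's processing, and these correlations are descriptions.

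Among probe sets outside the members that name 1 gene, those most like Fasn X13527cds_s_at over the 13 arrays were of Pfkfb4 (r = 0.96), Pcyt2 (0.96), Ptms (0.95), Eno1 (0.95), Rps24 (0.95) and Cdc37 (0.95). Over the 10 arrays outside TEN-160 their r fell to between 0.52 and 0.81. The most like Srebf1 were Golga2 (0.92), Cdc37 (0.91), Ptov1 (0.9), Rps24 (0.9), Arf5 (0.9) and Dusp1 (0.9), with 0.61 to 0.75 outside TEN-160. Rps24, a ribosomal protein gene, and Cdc37, a partner of the chaperone HSP90, were in both lists.

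The neighbouring steps of the pathway were followed through 6 lists. In the list that feeds glucose and fructose carbon to pyruvate, 3 of 11 tested probe sets fell from TEN-220 to TEN-160 and 0 rose, and 4 of 11 rose from TEN-160 to EtOH-160 and 0 fell. These are 27.3% and 36.4% of the list, against 17.8% and 22.3% of all probe sets called in these comparisons. Khk, ketohexokinase, fell by 1.16 and then rose by 1.18 (SE 0.167 and 0.157), Pfkl, the liver phosphofructokinase, fell by 1.66 and rose by 1.4 (SE 0.282 and 0.264), and Eno1, an enolase, fell by 1.21 and rose by 1.38 on X02610_at (SE 0.231 and 0.216). The other Eno1 probe set, X02610_g_at, did not follow, with uncalled changes of 0.23 and 0.05 (adjusted p = 0.37 and 0.844). The list's medians were −0.3 and 0.33, against −0.03 and 0.02 over all probe sets. Khk, Pfkl and Eno1 X02610_at also had called interactions of 1.25, 1.71 and 1.51.

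In the list around NADPH supply, 3 of 6 probe sets fell and 1 rose from TEN-220 to TEN-160, with a median of −0.46. Of its 4 tested genes (Idh1, Mdh1, Taldo1 and Tkt), only Idh1 encodes an enzyme that itself makes NADPH. From TEN-160 to EtOH-160, 2 of 6 rose and 1 fell. So 66.7% and 50% of the 6 were called, against 17.8% and 22.3% of all probe sets, with the opposite calls of Idh1 counted in. Tkt, the transketolase, fell by 0.8 on U09256_at (SE 0.231), while rc_AI059508_s_at had a change of 0 (adjusted p = 0.99). Mdh1, the cytosolic malate dehydrogenase, fell by 0.52 (SE 0.17). Idh1, the cytosolic NADP-dependent isocitrate dehydrogenase, gave opposite calls: rc_AA892314_at rose by 0.62, from 5090 to 7841, while rc_AA944025_at went from 258 to 22.3, where all 3 TEN-160 arrays lay below the background of 44. Direction is therefore unsettled for Idh1.

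The list of other fatty acid enzymes, which holds pyruvate entry, elongation and desaturation steps, had no common direction. From TEN-220 to TEN-160, 3 of 15 probe sets rose and 3 fell, and from TEN-160 to EtOH-160, 3 rose and 2 fell. These are 40% and 33.3% of the list, against 17.8% and 22.3% of all probe sets called. Dlat, a subunit of pyruvate dehydrogenase, fell by 0.81 and 0.76 on its called pair and rose by 0.88 on both, and D10655_at had uncalled changes of −0.29 and 0.37. Hsd17b12, the reductase of the elongation cycle that works beside Elovl5, rose by 0.8 (SE 0.185, adjusted p = 0.00994) and then fell by 0.72 (SE 0.173, adjusted p = 0.0102) on U81186_at, with an interaction of −1.1 (adjusted p = 0.0217). Its U81186_g_at had uncalled changes of 0.18 and −0.11 (adjusted p = 0.627 and 0.755). Pc, the pyruvate carboxylase, rose by 0.51 and fell by 0.5 on U32314_g_at, while U32314_at had uncalled changes of −0.39 and 0.4. Citrate synthase, Cs, fell by 1.18 from TEN-220 to TEN-160 (SE 0.332, adjusted p = 0.0254).

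Among genes of fatty acid activation and triglyceride assembly, 3 of 20 probe sets fell and 2 rose from TEN-220 to TEN-160, and 2 rose and 3 fell from TEN-160 to EtOH-160. In both comparisons 25% of the list was called, near the 17.8% and 22.3% of all probe sets. Pnpla3, a lipid droplet protein and known SREBP-1 target, fell by 3.83, from 4618 to 324 (SE 0.527, adjusted p = 0.000449). It was lower in EtOH-160 too, at 366, with a change of −3.66 from TEN-220 (SE 0.493, adjusted p = 0.00134). Plin2, which coats lipid droplets, fell by 2.05 and 1.74 on its probe sets from TEN-220 to TEN-160. On rc_AA893280_at it then rose by 0.96 from TEN-160 to EtOH-160 (SE 0.179, adjusted p = 0.00227). Its change from TEN-220 to EtOH-160 there was −1.09 (SE 0.179, adjusted p = 0.00666). On rc_AA874941_at the change from TEN-160 to EtOH-160 was an uncalled 0.7 (adjusted p = 0.0888). Gpam, the mitochondrial acyltransferase that starts triglyceride synthesis, rose by 1.25 from TEN-160 to EtOH-160 (SE 0.308, adjusted p = 0.0116) on 1 of its probe sets, U36772_at. Its other tested probe sets had uncalled changes of 0.18 to 1.6. In the same comparison Dbi fell by 0.66 (SE 0.143, adjusted p = 0.00553) and Acsl3 by 0.75 (SE 0.192, adjusted p = 0.0139). Acsl4, an acyl-CoA synthetase, rose by 0.84 from TEN-220 to TEN-160 and then fell by 0.72 (SE 0.24 and 0.225) on D85189_at, while rc_AI236284_s_at had uncalled changes of 0.08 and 0.15.

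Among genes that control SREBP-1, 7 of 34 probe sets fell and 1 rose from TEN-220 to TEN-160, and 9 rose and 1 fell from TEN-160 to EtOH-160, with medians of −0.26 and 0.28. These calls are 23.5% and 29.4% of the list, against 17.8% and 22.3% of all. Insig1, which holds SREBP in the endoplasmic reticulum and is itself a SREBP target, fell by 1.74 and rose by 1.36 on L13619_at (SE 0.2 and 0.187), while its L13619_g_at had a change of −0.25 (adjusted p = 0.459). Akt1, a kinase of insulin signalling, fell by 2.19 and rose by 2.5 on D30040_at (SE 0.375 and 0.35) and fell by 0.62 and rose by 0.7 on rc_AA799664_at. Prkag1, a regulatory subunit of the energy sensor AMPK, fell by 1.06 and rose by 1.16 (SE 0.205 and 0.192). Thra, a thyroid hormone receptor, was called in both directions on M31174_at, but its TEN-160 mean of 27.9 lay below the background of 44, against 84.4 in TEN-220 and 70.7 in EtOH-160, so no size is given; M31174_g_at had uncalled changes of 0.18 and −1.37. The 1 probe set that went the other way was of Prkaa2, a catalytic subunit of AMPK, which was named after its values were seen. It rose by 2.01, from 64.8 to 262, and then fell by 1.64 (SE 0.479 and 0.448).

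Cholesterol synthesis, which SREBP-2 mainly drives, was used beside these. Of 27 probe sets, 4 fell and 1 rose from TEN-220 to TEN-160, with a median of 0.06, and 6 rose and 2 fell from TEN-160 to EtOH-160, with a median of 0.26. The calls are 18.5% and 29.6% of the list, against 17.8% and 22.3% of all. Cyp51, a sterol demethylase, fell by 2.42 and rose by 2.32 on rc_AI230255_at (SE 0.379 and 0.354), but its other 4 probe sets were not called, with changes of −0.37 to 0.47 and of −0.17 to 0.38. Mvk, mevalonate kinase, fell by 1.41 and rose by 1.55 on rc_AA924198_s_at (SE 0.257 and 0.24), and M29472_at had uncalled changes of −0.33 and 0.4. Fdps, farnesyl diphosphate synthase, differed between its probe sets. On rc_AI180442_at it rose by 1.44 and then fell by 1.81 (SE 0.264 and 0.247), while M89945mRNA_at had uncalled changes of −0.57 and 0.28. On M89945mRNA_g_at the geometric means were 5073 in TEN-220, 6801 in TEN-160 and 3996 in EtOH-160. That probe set was not called from TEN-220 to TEN-160 but was called lower from TEN-160 to EtOH-160. Of the 113 tested probe sets of the 6 lists, limma called 0 between EtOH-220 and TEN-220, with 11 at an unadjusted p under 0.05, and 0 between EtOH-160 and EtOH-220, with 18.

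**Figure D4:**
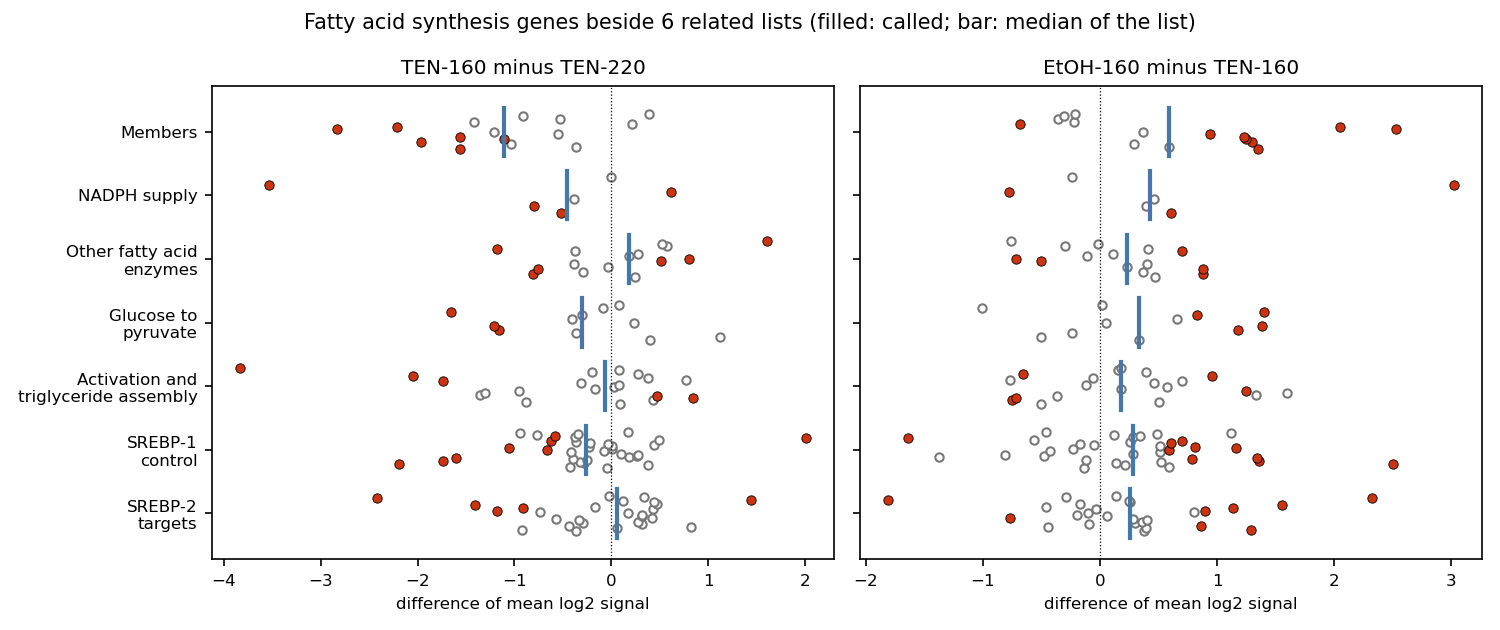
Difference of mean log2 signal of every tested probe set of the fatty acid synthesis genes and of the 6 related lists, from TEN-220 to TEN-160 (left) and from TEN-160 to EtOH-160 (right). Filled points passed an adjusted p of 0.05, bars are medians, and the vertical position within a row has no meaning. The members' medians lie at −1.11 and 0.59, and the triglyceride list reaches −3.83 with Pnpla3.

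Adipocytes use the same enzymes, so their markers were set beside these results. Of 6 markers measured, Plin1 and Fabp4 lay below background on all 13 arrays. The markers' summed signal ranged over 1406 to 2700 in TEN-160 and over 2349 to 3202 in the other groups, which overlapped. This sum is weighted to bright probe sets. Over the 8 tested adipocyte probe sets the median change from TEN-220 to TEN-160 was 0.34, against −0.03 over all probe sets. Of the 8, 1 was called higher and 0 lower (12.5%, against 17.8% of all). The called one was Lpl rc_AI237731_s_at, for a lipase of the vessel wall, which rose by 0.91 (SE 0.267, adjusted p = 0.032). Lpl L03294_at and L03294_g_at were not called, with geometric means of 98.3 and 163 in TEN-220 and 132 and 211 in TEN-160. The summed signal of 5 stellate cell and fibroblast markers ranged over 1793 to 4184 in TEN-160 and over 1091 to 1848 in the others, which overlapped. Col1a1 M27207mRNA_s_at alone ranged from 76.4 to 2144 over the arrays. Of the 7 tested probe sets of this list, 0 were called from TEN-220 to TEN-160 (against 17.8% of all), with a median of 0.1. From TEN-160 to EtOH-160, 2 of the 7 were called lower and 0 higher (28.6%, against 22.3% of all), with a median of −0.38. The 3 endothelial markers summed to 333 to 603 in TEN-160 and 229 to 252 in TEN-220, without overlap between these groups. In the ethanol groups they summed to 268 to 459. Kdr, an endothelial receptor of vascular growth factor, rose by 1.55 from TEN-220 to TEN-160 (SE 0.369, adjusted p = 0.0114). The part of these markers in the members' changes was not tested. The sum of 5 Kupffer cell and macrophage markers was 5029 to 7650 and 4637 to 6257, again with overlap. Pancreas markers, 6 in all, summed to 4478 to 11707 in TEN-160 and 2926 to 7540 in TEN-220. They summed to 2525 to 4443 in EtOH-220 and 3437 to 7538 in EtOH-160. Of their 6 tested probe sets, 1 was called higher from TEN-220 to TEN-160 and 0 lower (16.7%, against 17.8% of all). From TEN-160 to EtOH-160, 1 was called lower and 0 higher (against 22.3% of all). Their part was not tested either.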

How the data were processed

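Hepatic RNA of 13 samples was hybridised to 1 one-colour Affymetrix rat array each (8799 probe sets). The deposited values are linear intensity values that the authors made with MAS5, per the submitters' processing notes; no version is named. Their 2%-trimmed mean was 501 on 12 arrays and 133 on TEN-220 replicate 1, so all arrays were quantile normalized. Signals below the 10th percentile (9.34) were set to it and log2 was taken. The 59 control probe sets and the 40% of the other 8740 with the lowest mean were left out, which left 5244. Background (44) is the 95th percentile of 19 negative control probe sets.

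Group means were fitted with limma 3.58.1 in R 4.3.3 (lmFit on 4 groups, eBayes with a trend, two-sided), and p-values were adjusted by Benjamini-Hochberg over the 5244 in each comparison. Precision is limited by the number of arrays: pairwise changes had a median SE of 0.238 to 0.254. The procedure was tested on simulated data. Alternatives were other scalings, floors, filters and variance models, a replicate block and leaving out arrays. Same-numbered arrays of different groups did not deviate together (r of −0.112 to 0.0853 over 18 pairs), so the numbers were not taken as pairs. Replicate arrays correlated at r of 0.944 to 0.969, and 0 pairs were identical.

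All probe sets of the members are described. From each list some called genes are named, not in every case those with the smallest p of a comparison. Other tested probe sets of these genes are given in many cases but not in all, as with X12744_at of Thra. Prkaa2, Lpl, Kdr, Cd14, C1qb, Dbi and Acsl3 were added after their values were seen. The members and lists were chosen with earlier results of these data known. Gene positions and promoters are RefSeq's (GRCr8). Python 3.11.15 with matplotlib 3.10.9 drew the plots.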

Additional observations from a re-analysis of the deposited data

Results flagged for a closer look

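In 4 probe sets, the effect of ethanol differed between the energy supplies by the interaction of the limma fit. The interaction, the change from TEN-160 to EtOH-160 minus that from TEN-220 to EtOH-220, was 2.31 for Fasn X13527cds_s_at and 3.41 for Fasn M76767_s_at. It was 1.87 for Acly J05210_g_at and 1.87 for Scd J02585_at. In each, the 4 EtOH-160 arrays lay above the 3 TEN-160 arrays. Over all probe sets, 31.1% had no overlap between these groups, in either direction. The interaction contains this change, so the separation is no further support for it. The interactions rest on the 3 TEN-160 arrays, which stood apart over all genes. In EtOH-160, the only group with 4 arrays, 0 of the 16 member probe sets had a single array set far apart by Dixon's criterion.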

How the results depend on the processing

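Of 1755 member values recomputed under the alternatives, 1713 kept their side of the threshold, 27 lost a call, 15 gained one and 0 called changes reversed. Another sign was seen in 62 uncalled changes. Most of the 1755 were uncalled in the main fit and could lose no call. The 27 losses belong to the called changes alone: 8 in EtOH-160 minus TEN-160, 6 in TEN-160 minus TEN-220 and 4 in the interaction, each under 19 alternatives. Of these losses, 13 came with the values as deposited, where TEN-220 replicate 1 is unscaled by construction and the median change of all probe sets moves by 0.67 (EtOH-220 minus TEN-220), 0.73 (TEN-160 minus TEN-220), 0.64 (EtOH-160 minus TEN-220) and −0.75 (interaction). There, 2 members were called in EtOH-160 minus TEN-160 (2 higher, 0 lower, against 7 and 1), 2 in TEN-160 minus TEN-220 and 1 in the interaction. The counts over all probe sets were then 107, 346 and 65, and 58 in EtOH-220 minus TEN-220. Higher calls made up 94.8% in TEN-160 minus TEN-220, against 44.1%, and 6.15% in the interaction, against 56.7%. Trimmed-mean scaling moved the median interaction by −0.11.

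Over all probe sets, EtOH-220 minus TEN-220 had 1 call, 0 with no filter or no variance trend, 2 with the replicate block and 5 with TEN-160 left out. EtOH-160 minus EtOH-220 had 15, 0 with no filter and 2 with the block. EtOH-160 minus TEN-220 had 117, 60 with no filter, 68 with no trend and 58 with the block. Under the block the members' calls of Acly L27075_g_at in EtOH-160 minus TEN-160 (adjusted p = 0.0542) and of Acly J05210_g_at in the interaction (0.054) were lost, and no other; the numbers do not pair the arrays.

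Leaving out each array in turn gave 0 to 1 member and 0 to 13 of all probe sets in EtOH-220 minus TEN-220, 7 to 8 and 880 to 1325 in EtOH-160 minus TEN-160, and 6 to 8 and 542 to 1058 in TEN-160 minus TEN-220. It gave 0 members and 4 to 52 of all in EtOH-160 minus EtOH-220, 0 to 2 and 38 to 150 in EtOH-160 minus TEN-220, and 3 to 5 and 132 to 344 in the interaction. Counts over all probe sets moved by over 1.5 times without TEN-220 replicate 1 or 2 in TEN-160 minus TEN-220 (542 and 547) and the interaction (132 and 182). They did so without any TEN-220 replicate or EtOH-160 replicate 2, 3 or 4 in EtOH-160 minus TEN-220 (38 to 71), and in EtOH-160 minus EtOH-220 without EtOH-160 replicate 1, 3 or 4 or any array of EtOH-220. In EtOH-220 minus TEN-220, with 1 call, nearly every array left out moved it. With 3 or 4 arrays a group, the intervals of Acaca and Me1 allow changes well beyond their estimates.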

Other observations

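A probe set that the array's annotation gives jointly to Scd, Scd2, Scd3 and Scd4, AF036761_g_at, was not counted among the members. Its signals were 889, 554 and 576 in TEN-220, 590, 468 and 1398 in EtOH-220, 95.7, 117 and 47 in TEN-160, and 641, 816, 437 and 989 in EtOH-160. The TEN-160 arrays lay below the other 10. It fell by 3.03 from TEN-220 to TEN-160 (limma, SE 0.426, adjusted p = 0.000527) and rose by 3.1 from TEN-160 to EtOH-160 (SE 0.399, adjusted p = 0.000347), with an interaction of 2.95 (SE 0.583, adjusted p = 0.0112). Which of the desaturase genes it measured cannot be told from the annotation.

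Cd14, a macrophage receptor for bacterial lipopolysaccharide, was higher in EtOH-160 than in TEN-220 on both probe sets, by 1.51 and 0.89 (limma, SE 0.237 and 0.17, adjusted p = 0.00547 and 0.0166). It also rose from TEN-160 to EtOH-160, by 1.57 and 0.81 (adjusted p = 0.000723 and 0.00488), whereas C1qb, another macrophage gene, fell by 0.81 on X71127_g_at (SE 0.186, adjusted p = 0.00798), and X71127_at had an uncalled −0.34. These 2 genes were named after their values were seen.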
